A study of Mus musculus with 6 samples.

Results

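Imprinted genes are a small set of mammalian genes that are expressed mainly from the copy inherited from 1 parent. The 41 genes described here are well-known mouse imprinted genes, grouped by the cluster they share and taken by symbol from a table of 49585 gene rows, in which all 41 have a row. The table holds RNA-seq counts of epiblast-like cells (EpiLCs), which are derived from mouse embryonic stem cells and resemble the epiblast around implantation, in 3 wild-type libraries (WT) and 3 libraries deficient for Cables2 (KO). Both genotypes were of strain C57BL/6, came from embryonic stem cells held in medium with LIF, CHIR99021 and PD0325901, and were collected 2 days after transfer to fibronectin with activin A at 20 ng/mL, bFGF at 12 ng/mL and KSR at 1%. The labels do not say how Cables2 was inactivated, whether a genotype is 1 clone, or whether the libraries of a genotype came from separate cultures, so the p-values given here reflect the spread among libraries, which may be technical.

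In imprinted clusters a differentially methylated control region carries methylation from the egg or the sperm through fertilization. The methylated copy is recognised through the sequence TGCCGC by the zinc finger protein ZFP57, which recruits TRIM28 and keeps the mark while the rest of the genome is demethylated. The control region then sets which parental copy of the neighbouring genes is transcribed, through a noncoding RNA in some clusters and through an insulator bound by CTCF in others. The libraries come from an inbred strain and count both parental copies together, so the share of each copy was not measured. In RNA from bulk cells, fewer expressing cells and less RNA in each cell cannot be told apart either.

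The totals of the count columns ran from 4234788 to 5206717 per library, and a count of 3, used as a floor, was worth 0.576 to 0.708 CPM (counts scaled to the size of the library). Cables2 had 114, 111 and 121 counts in the WT libraries and 6, 11 and 4 in the KO libraries, with a log2 fold change of -4.16 (KO minus WT, as everywhere below). The summed level of 11 EpiLC markers was 5440 to 5700 CPM in WT and 5870 to 6080 CPM in KO, with none of them at 0 and Dnmt3b, Cdh1 and Utf1 making up most of the sum. Of these 11 markers, 5 rose, among them Fgf5 (223% of WT, edgeR adjusted p = 5.2e-10) and Pou3f1 (184%, edgeR adjusted p = 1.5e-23), and 2 fell, Lef1 (76.1%) and Cdh1 (85.3%, chromosome 8), against 8.13% and 9.13% of all genes tested. Of 15 fibroblast markers, Postn, Lum, Prrx1 and S100a4 were at 0, and Thy1, Twist1 and Fbn1 had the most counts. The sum was 40.4 to 43.7 CPM in WT and 45.4 to 48.6 CPM in KO. Only 5 of the fibroblast markers were tested, of which 0 fell and 1 rose. That was Acta2 (268% of WT, edgeR adjusted p = 0.0262), with 4 to 7 counts in WT and 14 to 17 in KO. Of 14 primitive endoderm markers, Afp was at 0, and the sum was 285 to 298 CPM in WT and 239 to 242 CPM in KO. Most of that sum came from Sparc (172 CPM in WT) and Col4a1 (90.7 CPM in WT, chromosome 8). Only 5 of these markers were tested, of which 0 rose and 3 fell: Gata4 (42.4% of WT), Col4a1 (71.1%) and Sparc (87.4%). Of 13 trophoblast markers, Elf5, Tpbpa, Prl3d1 and Plac1 were at 0, and the sums, 25.2 to 35.7 CPM and 29.2 to 32.6 CPM, overlapped. The part of these markers in the results below was not tested.

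The promoter windows of 4 members are shown because these genes differed between the genotypes and their windows hold the TGCCGC hexamer. Each runs from 250 bases before to 50 bases after a RefSeq transcript start on GRCm38.p6 and is printed 5′ to 3′ on the gene's strand, with TGCCGC or its reverse complement GCGGCA in capitals. They lie at chr1:63200108-63200407 (Zdbf2, plus strand), chr6:30737800-30738099 (Mest, plus), chr6:30896745-30897044 (Copg2, minus) and chr11:12037371-12037670 (Grb10, minus).
Zdbf2: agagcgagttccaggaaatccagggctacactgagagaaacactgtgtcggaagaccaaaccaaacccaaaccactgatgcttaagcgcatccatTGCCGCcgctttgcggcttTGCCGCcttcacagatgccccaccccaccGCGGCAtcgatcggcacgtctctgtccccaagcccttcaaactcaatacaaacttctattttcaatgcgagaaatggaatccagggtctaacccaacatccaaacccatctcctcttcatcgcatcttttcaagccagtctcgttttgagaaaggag
Mest: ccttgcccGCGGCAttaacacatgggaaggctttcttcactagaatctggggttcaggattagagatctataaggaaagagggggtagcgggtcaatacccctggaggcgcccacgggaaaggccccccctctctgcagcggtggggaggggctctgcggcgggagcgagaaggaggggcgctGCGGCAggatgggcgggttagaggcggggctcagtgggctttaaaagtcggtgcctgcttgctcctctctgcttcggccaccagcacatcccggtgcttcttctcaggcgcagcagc
Copg2: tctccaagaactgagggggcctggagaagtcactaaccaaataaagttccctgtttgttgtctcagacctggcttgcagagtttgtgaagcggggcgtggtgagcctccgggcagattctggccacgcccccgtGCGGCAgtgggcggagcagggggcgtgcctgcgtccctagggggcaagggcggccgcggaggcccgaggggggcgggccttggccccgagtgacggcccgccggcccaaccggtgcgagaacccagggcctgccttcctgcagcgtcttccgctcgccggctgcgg
Grb10: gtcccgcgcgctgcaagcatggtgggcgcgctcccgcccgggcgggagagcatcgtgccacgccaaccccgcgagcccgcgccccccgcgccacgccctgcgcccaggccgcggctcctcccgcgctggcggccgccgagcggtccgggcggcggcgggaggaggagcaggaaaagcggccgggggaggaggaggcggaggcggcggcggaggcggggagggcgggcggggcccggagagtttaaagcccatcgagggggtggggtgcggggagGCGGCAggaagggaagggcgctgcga

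The Zdbf2 window held 3 copies of the hexamer and belongs to a transcript that starts upstream of the gene's row in the table; the window at the start of that row held 0. The Mest window held 2 copies, and the Copg2 and Grb10 windows held 1 each. RefSeq windows were matched by symbol for 33 of the 41 members, 50 windows in all. At least 1 hexamer on either strand stood in 26% of these windows, against 11.6% of all 32851 windows, and no other motif was searched. Among the members called below, 5 of 14 windows held it (35.7%). Mest is counted in both shares with 2 windows that overlap almost fully, starting at chr6:30737800 and chr6:30737803. The 14 windows belong to 8 called members, as Peg10, Sgce and H19 had no window. Member windows were also richer in CpG, with a median of 15 CpG dinucleotides against 7 and a median GC content of 56.7% against 52.7%, and the hexamer itself contains a CpG. A match says only that these letters are present in the window.

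Of the 41 members, 31 had enough counts to be tested with edgeR's quasi-likelihood test, which was fitted to 11594 genes with Benjamini-Hochberg adjustment over all of them. At an adjusted p under 0.05, 5 members rose in the KO (Grb10, Zdbf2, Peg12, Peg3 and Rian), 6 fell (Peg10, H19, Sgce, Mest, Slc38a4 and Copg2) and 20 were not called. The 11 called members are 35.5% of those tested, against 17.3% of all genes tested, of which 8.13% rose and 9.13% fell. The members were chosen with earlier results of these data known, so their shares do not measure how often imprinted genes changed. On a wider list of other imprinted genes, 2 of 31 tested rose and 3 fell. The median log2 fold change was 0.08 over the members and 0.00875 over all genes. The KO and WT values did not overlap in 15 members (48.4%, against 31.6% of all genes), among them 10 of the 11 called. The authors' deposited table called 4 members higher and 6 lower; the exception was Peg3, with an FDR of 0.22 there.

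**Figure D1:**
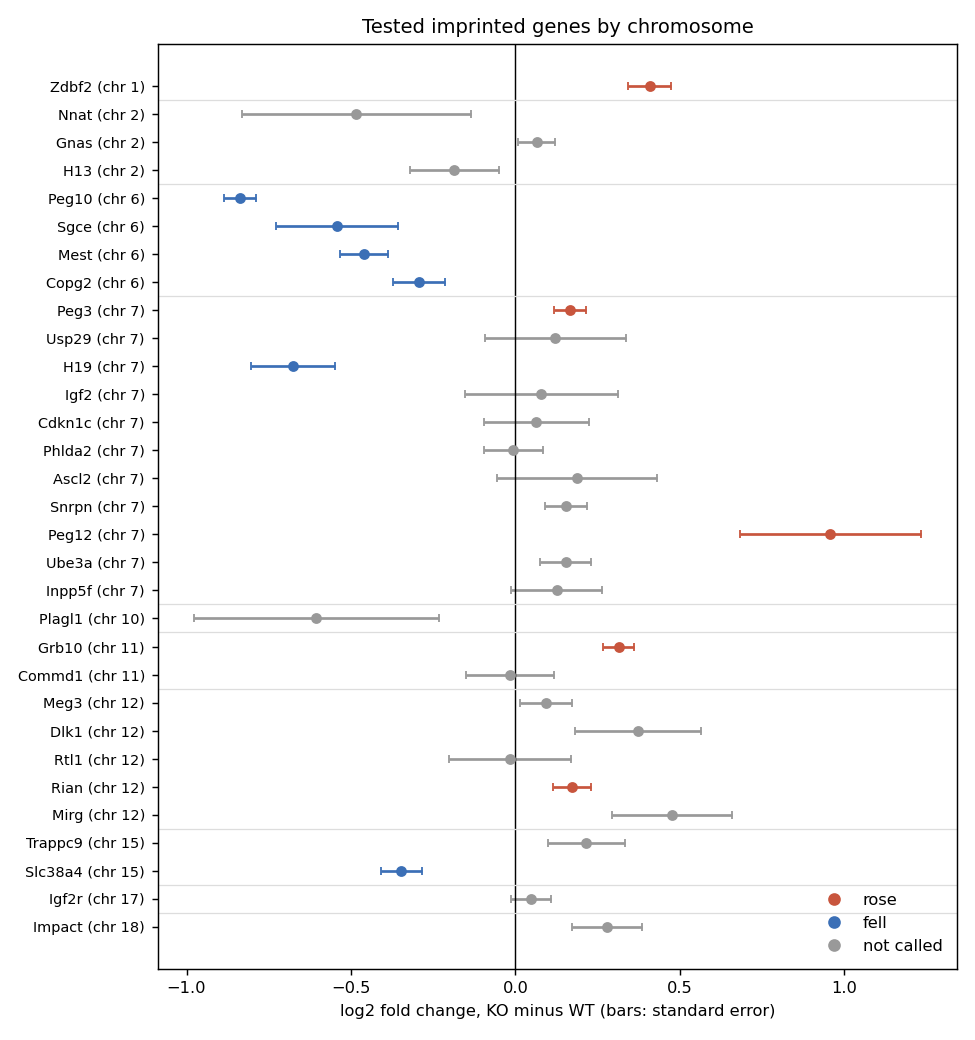
Log2 fold change of each of the 31 tested imprinted genes (points, KO minus WT; bars, standard error), ordered by chromosome and coloured by call. The 4 genes of chromosome 6 all lie to the left of 0, whereas 9 of the 11 tested genes of chromosome 7 lie to the right and H19 lies apart from them at -0.68.

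All 4 members of chromosome 6, 3 of them paternally expressed, fell in the KO. Peg10 (ENSMUSG00000092035.8, chr6:4747306-4760517, plus strand, mm10) derives from a retrotransposon and is needed for placenta formation. It had 2905, 2524 and 2495 counts in WT against 1745, 1743 and 1409 in KO, or 589 ± 22.9 CPM and 330 ± 10.6 CPM (mean ± SD, n = 3 each). Peg10 was thus at 56.0% of its WT level, with all KO libraries far below all WT libraries; the log2 fold change was -0.84 ± 0.05 (SE, edgeR adjusted p = 7.44e-25). Sgce (ENSMUSG00000004631.15), which encodes a membrane protein of the dystrophin-associated complex, lies head to head with Peg10, with 98 bases between the rows. Sgce had 84, 69 and 62 counts in WT against 53, 68 and 42 in KO, and in CPM the groups did not overlap (15.9 ± 1.47 against 10.9 ± 1.78; SD, n = 3 each). Its log2 fold change was -0.54 ± 0.19 (edgeR adjusted p = 0.0314). The call of Sgce was lost without WT library 01, WT library 02, KO library 04 or KO library 06, with an adjusted p of up to 0.148, and with DESeq2 (0.114).

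Mest (ENSMUSG00000051855.15, chr6:30723547-30748465, plus strand), a paternally expressed gene of the alpha/beta hydrolase family, had 570, 581 and 481 counts in WT against 479, 442 and 386 in KO. All KO libraries were lower on the CPM scale, 88.1 ± 4.73 against 121 ± 7.7 (SD, n = 3 each), a log2 fold change of -0.46 ± 0.07 (edgeR adjusted p = 8.1e-07). Copg2 (ENSMUSG00000025607.15), a coat protein subunit of vesicle traffic expressed mainly from the maternal copy, runs in the opposite direction and overlaps Mest by 912 bases. Copg2 had 466, 429 and 375 counts in WT against 392, 397 and 352 in KO, and its log2 fold change was -0.29 ± 0.08 (edgeR adjusted p = 0.00408). The paternally and the maternally expressed gene of this cluster thus both fell. The strand setting of the counting is not given in the sources used here, so reads in the overlap could have been assigned to either gene.

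Chromosome 6 as a whole was lower in the KO. Of 537 tested genes there, 35.8% fell and 1.12% rose, with a median log2 fold change of -0.25, and chromosome 8 was the other one with such a shift (34.5% fell, median -0.21). The chromosome 6 median of each KO library was -0.277, -0.239 and -0.268 relative to WT, so the shift was present in all 3. All 4 members lay below that median. Relative to it, Peg10 was at -0.589, Sgce at -0.293 and Mest at -0.213, whereas Copg2 was at -0.0453, less than its standard error. The standard errors of the log2 fold changes were 0.05 for Peg10, 0.19 for Sgce and 0.07 for Mest. Only 4.28% of the tested chromosome 6 genes had a log2 fold change below that of Peg10. Within 250000 bases of the Mest cluster Tmem209, which encodes a nuclear envelope protein, fell too (-0.50, edgeR adjusted p = 5.17e-08). The 1 tested neighbour of Peg10 and Sgce was Casd1, which is on the wider list of other imprinted genes. Casd1 was not called, at -0.275 ± 0.205 (SE) and a WT mean of 12.7 CPM. How much of the fall of the 4 members belongs to the chromosome-wide shift was not tested beyond these differences. Outside chromosomes 6 and 8, 7 of 27 tested members were called (25.9%), against 15.1% of the 10410 tested genes there. The limit set by the choice of members applies to this share too.

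**Figure D2:**
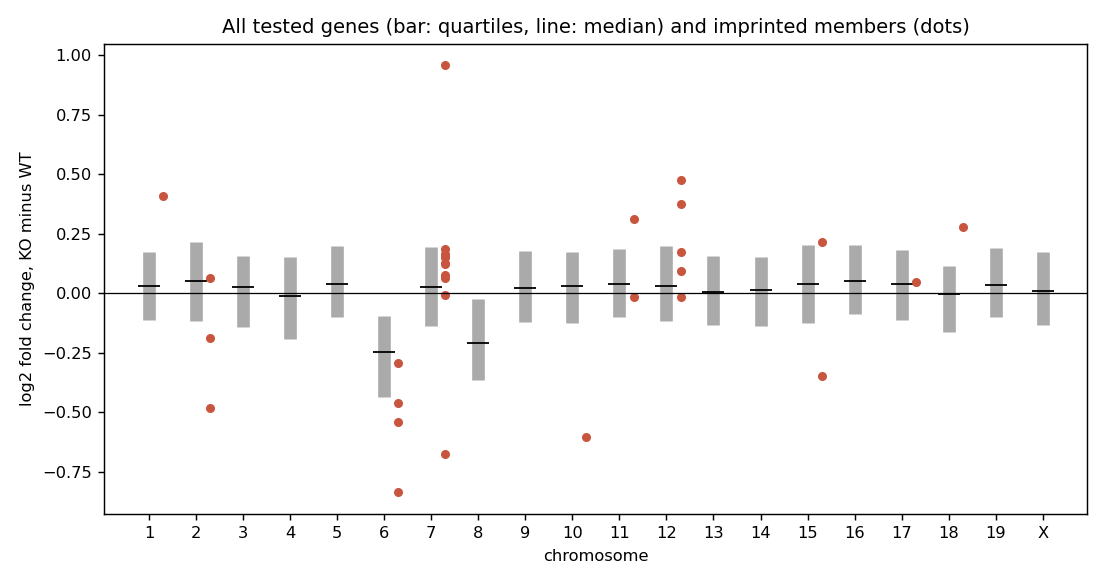
Log2 fold change (KO minus WT) of all tested genes by chromosome (grey bars, quartiles; black lines, medians) with the imprinted genes as red points. The bars of chromosomes 6 and 8 sit below 0, with medians of -0.25 and -0.21, and the 4 imprinted genes of chromosome 6 lie below that chromosome's median.

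H19 and Slc38a4 fell on chromosomes without such a shift. H19 (ENSMUSG00000000031.16, chr7:142575529-142578143, minus strand) is a maternally expressed noncoding RNA that restrains growth and shares enhancers with Igf2. It had 186, 163 and 204 counts in WT against 137, 154 and 93 in KO, or 41.3 ± 6.47 CPM and 25.6 ± 4.19 CPM (SD, n = 3 each). The groups were apart, KO library 06 was the lowest, and the log2 fold change was -0.68 ± 0.13 (edgeR adjusted p = 3.01e-05). Igf2, the paternally expressed growth factor gene 72622 bases away, had 27 to 48 counts in WT against 37 to 47 in KO, with overlapping groups (0.08 ± 0.23, edgeR adjusted p = 0.867). Its direction turned without WT library 01 (-0.0117) or WT library 03 (-0.0544). The receptor gene Igf2r, which clears IGF2, had 988, 798 and 776 counts in WT against 986, 1087 and 846 in KO, and the groups overlapped (0.05 ± 0.06, edgeR adjusted p = 0.665; -0.00263 without WT library 02). Slc38a4 (ENSMUSG00000022464.14, chr15:96994823-97055956, minus strand), a paternally expressed amino acid transporter gene, had 1003, 828 and 787 counts in WT against 741, 853 and 674 in KO. Scaled to library size, all KO libraries were below all WT libraries, 153 ± 8.85 against 194 ± 13.8 CPM (SD, n = 3 each; -0.35 ± 0.06, edgeR adjusted p = 1.19e-05).

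H19 and Mest also host microRNA genes, and their mature sequences from RefSeq (GRCm38.p6) are given because both hosts fell; the seed, bases 2 to 8, is in capitals.
miR-675-5p: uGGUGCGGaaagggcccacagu
miR-675-3p: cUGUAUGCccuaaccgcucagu
miR-335-5p: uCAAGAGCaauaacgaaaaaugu
miR-335-3p: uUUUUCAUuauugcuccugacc

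The first pair lies in H19 and the second in Mest, and the 4 seeds all differ. Mature microRNAs were not measured in these libraries. The noncoding RNA Mirg hosts 14 annotated microRNA genes with 26 mature sequences, Rian 3 genes with 6, and Meg3 2 genes with 3.

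Among the members that rose, Grb10 and Zdbf2 were called in every fit that left out 1 library. Grb10 (ENSMUSG00000020176.17, chr11:11930508-12038683, minus strand) encodes an adaptor protein that dampens insulin and growth factor signalling and is expressed from the maternal copy in most tissues and the paternal copy in neurons. It had 2146, 2218 and 1998 counts in WT against 3009, 3055 and 2662 in KO. Every KO library was above every WT library, 589 ± 11.4 against 474 ± 23.1 CPM (SD, n = 3 each; 0.31 ± 0.05, edgeR adjusted p = 2.47e-07). Zdbf2 (ENSMUSG00000027520.15, chr1:63273265-63314576, plus strand), a paternally expressed zinc finger gene with a postnatal growth role, had 631, 633 and 598 counts in WT against 983, 861 and 878 in KO. The groups were again apart, 184 ± 18.5 against 139 ± 5.73 CPM (SD, n = 3 each; 0.41 ± 0.07, edgeR adjusted p = 8.75e-07). None of the 3 tested neighbours of Grb10 or the 4 of Zdbf2 within 250000 bases was called, beside 17.3% of all genes tested. Cobl, an imprinted gene near Grb10 that was not counted among these neighbours, fell (-0.86, edgeR adjusted p = 4.77e-08).

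The other rises were smaller or rested on few counts. Peg12 (ENSMUSG00000070526.2, chr7:62461871-62464510, minus strand), a paternally expressed relative of the GSK3-binding gene Frat1, had 27, 9 and 26 counts in WT against 51, 39 and 43 in KO. The KO mean was 195% of the WT mean (9.02 ± 1.40 against 4.62 ± 2.28 CPM; SD, n = 3 each), with no overlap (0.96 ± 0.28, edgeR adjusted p = 0.00823). Without WT library 02, which had the lowest count, the log2 fold change of Peg12 was 0.596 (adjusted p = 0.152), and the call was also lost without KO library 04 (0.0558) and with DESeq2 (0.056). Peg3 (ENSMUSG00000002265.16, chr7:6703892-6730431, minus strand), a paternally expressed zinc finger gene tied to maternal behaviour in mice, had 2764, 2316 and 2207 counts in WT against 3243, 3023 and 2733 in KO. On the CPM scale WT library 01 (579) was above KO library 05 (574), so the groups overlapped (0.17 ± 0.05, edgeR adjusted p = 0.00858). The call of Peg3 was lost without WT library 02, WT library 03 or KO library 04, with an adjusted p of up to 0.0962. Its neighbour Usp29, a ubiquitin protease gene that starts 146 bases away on the other strand, had 37 to 58 counts and overlapping groups (0.12, adjusted p = 0.762). Zim1, the maternally expressed zinc finger gene of the cluster, had 1 to 7 counts and was not tested.

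**Figure D3:**
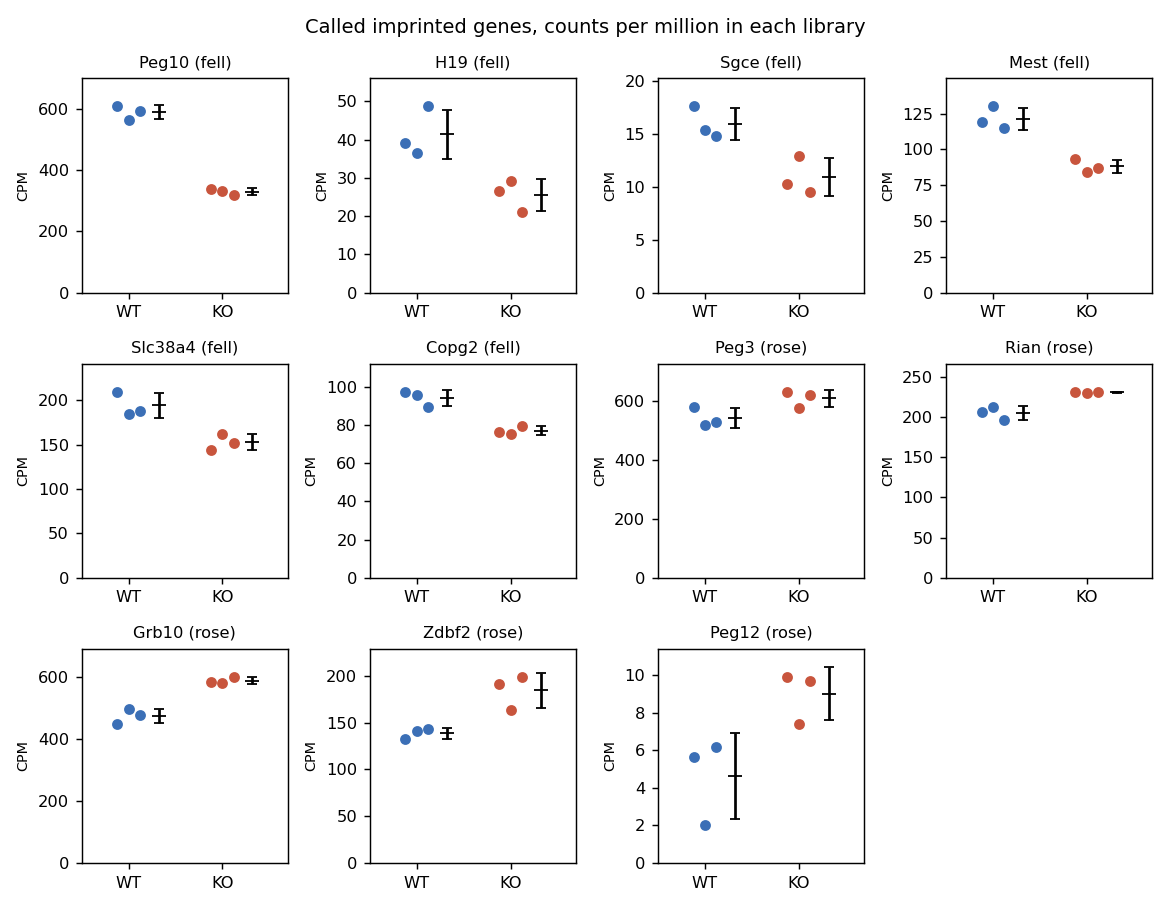
CPM of the 11 called imprinted genes in each library (blue, WT; red, KO; black, mean ± SD, n = 3). Every axis starts at 0. Peg3 is the gene whose groups overlap, and its lowest KO library is below its highest WT library.

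The Dlk1-Meg3 cluster of chromosome 12 held 5 members, all tested, of which 1 rose and the other 4 were not called, beside the 8.13% and 9.13% of all genes. Rian (ENSMUSG00000097451.10, chr12:109603940-109661716, plus strand), a maternally expressed RNA that hosts small nucleolar RNAs, had 983, 953 and 820 counts in WT against 1185, 1213 and 1026 in KO. Its KO libraries lay close together above WT, 231 ± 0.925 against 205 ± 8.69 CPM (SD, n = 3 each; 0.17 ± 0.06, edgeR adjusted p = 0.0242). The call was lost without WT library 03, KO library 04, KO library 05 or KO library 06, with an adjusted p of up to 0.151, and with DESeq2 (0.0637). Meg3, the maternally expressed noncoding RNA at the head of this transcribed region, had 402, 376 and 332 counts in WT against 458, 457 and 390 in KO. All KO libraries of Meg3 were higher in CPM, but the gene was not called (0.09 ± 0.08, edgeR adjusted p = 0.466). Mirg had 59, 60 and 52 counts in WT against 112, 65 and 85 in KO, and on the CPM scale KO library 05 (12.3) was just below the lowest WT library (12.4) while the other KO libraries were above all of WT (0.48 ± 0.18, edgeR adjusted p = 0.058). Without that library Mirg was called at 0.69 (adjusted p = 0.00597).

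Of the paternally expressed genes of the same cluster, Dlk1, a membrane-bound ligand of the Notch family, had 50, 45 and 46 counts in WT against 70, 76 and 56 in KO. The groups did not overlap in CPM, yet the gene was not called (0.37 ± 0.19, edgeR adjusted p = 0.183). Rtl1, a retrotransposon-derived gene needed in the placenta and antisense to microRNAs, had 78, 61 and 52 counts in WT against 92, 61 and 55 in KO, with overlapping groups (-0.02 ± 0.19, edgeR adjusted p = 0.966). The sign of Rtl1 turned without WT library 01, KO library 05 or KO library 06 (0.0528 to 0.108).

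In the Snrpn-Ube3a cluster of chromosome 7, the region lost in Prader-Willi and Angelman syndromes in humans, 3 of 6 members were tested and 1, Peg12, was called. Over all genes tested, 17.3% were called. Snrpn, a spliceosome protein gene expressed from the paternal copy, had 701, 661 and 682 counts in WT against 854, 916 and 743 in KO. All KO libraries were above WT in CPM (166 to 174 against 147 to 163), without a call (0.15 ± 0.06, edgeR adjusted p = 0.0785). Ube3a, a ubiquitin ligase gene expressed from the maternal copy in neurons, had 464, 377 and 394 counts in WT against 492, 532 and 487 in KO, and the groups overlapped in CPM (0.15 ± 0.08, edgeR adjusted p = 0.168). Snrpn was called without WT library 03 (adjusted p = 0.0435).

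The Kcnq1 cluster, which holds maternally expressed restraints of growth, showed no call among its 3 tested members, beside 17.3% of all genes tested. The cell cycle inhibitor gene Cdkn1c had 89, 73 and 82 counts in WT against 113, 98 and 71 in KO (0.06 ± 0.16, edgeR adjusted p = 0.84). Phlda2, which limits placental growth, had 295, 261 and 267 counts in WT against 304, 337 and 264 in KO (-0.01 ± 0.09, edgeR adjusted p = 0.974). Both pairs of groups overlapped, and both log2 fold changes took the other sign without some of the libraries (as low as -0.0643 for Cdkn1c, as high as 0.0207 for Phlda2). Ascl2, a transcription factor gene of the trophoblast, had 31 to 34 counts in WT against 32 to 46 in KO (0.19, adjusted p = 0.673; -0.00625 without KO library 06). Kcnq1ot1, the long noncoding RNA that silences the cluster on the paternal copy, was listed at 0 in all libraries.

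The remaining tested members were not called. Gnas, which gives the G protein alpha subunit and further transcripts with different parental expression, had 1003, 917 and 900 counts in WT against 1163, 1136 and 957 in KO. Its groups were apart by a small margin (0.06 ± 0.06, edgeR adjusted p = 0.487), and the row does not separate its transcripts. Impact (chromosome 18), a regulator of the translation control kinase GCN2, had 179, 195 and 184 counts in WT against 235, 276 and 236 in KO. All KO libraries were higher in CPM (50.5 ± 4.15 against 41.7 ± 3.60; SD, n = 3 each), with 0.28 ± 0.11 and an edgeR adjusted p of 0.0554; Impact was called without KO library 04 (0.0361). Trappc9, a vesicle tethering gene, had 189, 167 and 133 counts in WT against 192, 264 and 171 in KO, with overlapping groups in CPM (0.22, adjusted p = 0.212). H13, a signal peptide peptidase gene, had 129, 129 and 121 counts in WT against 110, 135 and 122 in KO, with overlap (-0.19, adjusted p = 0.38). The copper handling gene Commd1 had 124, 130 and 121 counts in WT against 130, 165 and 115 in KO, and the phosphoinositide phosphatase gene Inpp5f 108, 133 and 97 and 155, 147 and 106; both overlapped (-0.02 and 0.13). The sign of Commd1 turned without WT library 02, WT library 03, KO library 04 or KO library 06 (up to 0.0417). Plagl1, a zinc finger regulator of other imprinted genes, had 14 to 23 counts in WT against 9 to 20 in KO (-0.61 ± 0.37, edgeR adjusted p = 0.281), and Nnat, a small membrane protein gene, had 15 to 25 and 11 to 25 (-0.48 ± 0.35, edgeR adjusted p = 0.374).

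By usual parental expression, 3 of 16 tested paternally expressed members rose and 4 fell (median 0.10), and 1 of 13 maternally expressed members rose and 2 fell (median 0.06); the difference between these shares was not tested. Of all genes tested, 8.13% rose and 9.13% fell. Peg10, Sgce and Mest among the paternal falls and Copg2 among the maternal ones lie on chromosome 6, where 35.8% of all tested genes fell; the others are Slc38a4 and H19. Of the remaining 2 members, with mixed parental expression, Grb10 rose and Gnas was not called. Calls in both directions were thus present among the paternally and the maternally expressed members. The maternal rise was Rian alone, which stayed called in 2 of the 6 fits that left out 1 library and was not called with DESeq2. By function, 3 of the 6 members with enzyme or transport roles fell (Mest and Copg2, both on chromosome 6, and Slc38a4) and none rose (edgeR, 3 called). Of 4 tested noncoding RNAs, 1 rose (Rian) and 1 fell (H19). Of 3 members of the growth factor axis, Grb10 rose, while Igf2 and Igf2r were not called.

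Levels between genes were compared per length, as CPM per kilobase of annotated exon (GENCODE M21), for the 31 tested members. Peg10 had the highest level in WT, 88.4 ± 3.44 CPM per kilobase, above Snrpn at 70.6 ± 4.13 (SD, n = 3 each) without overlap. Phlda2 at 54.7 and Grb10 at 52.1 came next and overlapped each other, as did Slc38a4 at 45.6 and Peg3 at 40.6 CPM per kilobase. In KO, Snrpn led with 78.4 ± 1.85 CPM per kilobase, followed by Grb10 at 64.8 ± 1.26 by Phlda2 at 54.4 ± 2.35 and by Peg10 at 49.4 ± 1.58 (SD, n = 3 each). At the low end, Usp29 (0.51) and Plagl1 (0.53) were below 1 CPM per kilobase in WT. Reads in introns or in unannotated exons, if they were counted, would raise such a level.

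**Figure D4:**
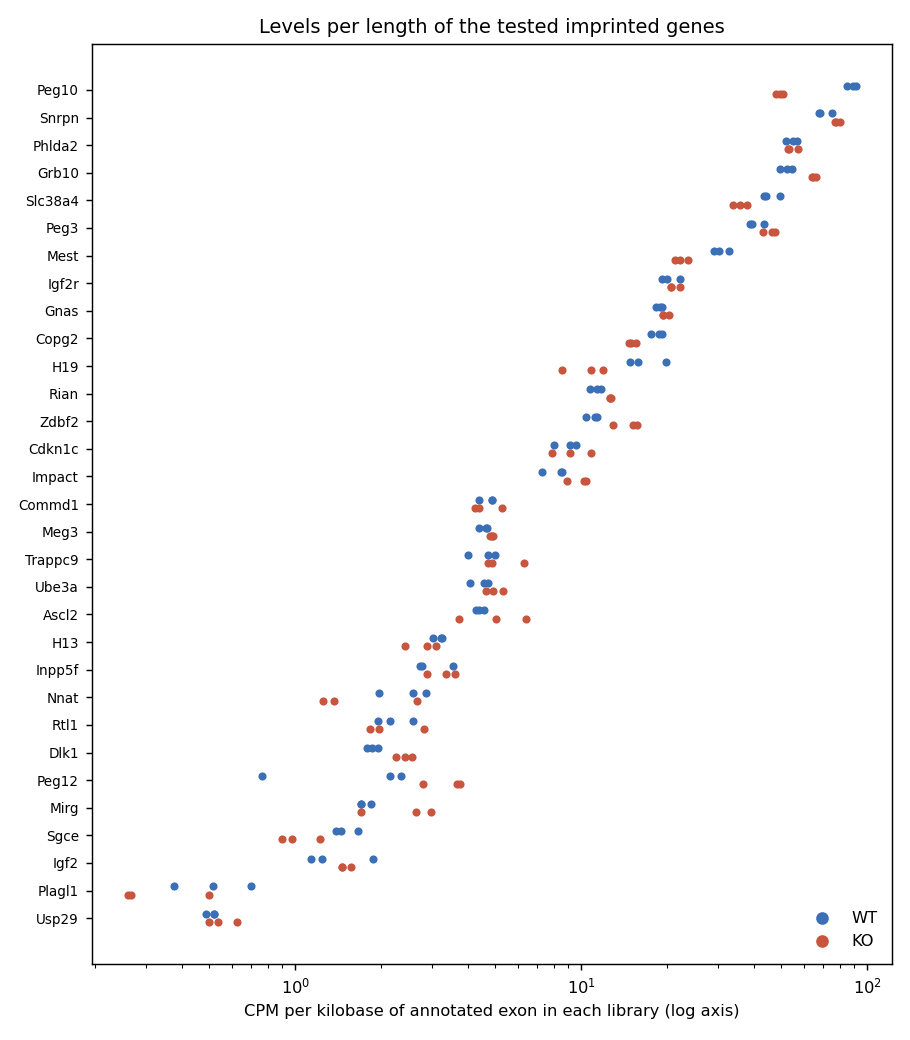
CPM per kilobase of annotated exon for the 31 tested imprinted genes in each library, on a log axis (blue, WT; red, KO), ordered by the WT mean. Levels in WT run from 0.51 for Usp29 to 88.4 for Peg10, and Peg10 is the gene at the top whose KO points lie clearly to the left.

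The other 10 members had too few counts to be tested, and 8 of them had at most 5 counts in every library. Kcnq1ot1, Magel2, Mkrn3, Mcts2 and Peg13 were listed at 0 in all 6 libraries. Ndn, the gene of the neuronal growth suppressor necdin, and Zrsr1, a retrocopy with a splicing factor domain, had 0 or 1 count per library. Airn, the noncoding RNA that silences Igf2r on the paternal copy, had 0 to 4 counts, and Rasgrf1, a Ras exchange factor gene, had 1 to 8. Zim1 had 2, 1 and 6 counts in WT against 7, 7 and 5 in KO. These values lie at or near the floor of 3 counts, and no fold is given for them.

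A low count in these rows does not show that the RNA was absent. Ndn, Mkrn3 and Magel2 lie inside the span of the row Gm45009, Mcts2 lies inside H13, Zrsr1 inside Commd1, Kcnq1ot1 inside Kcnq1 and Peg13 inside Trappc9. The enclosing rows themselves held 0 or 1 count per library for Gm45009 and 0 to 4 for Kcnq1. They held 110 to 135 for H13, 115 to 165 for Commd1 and 133 to 264 for Trappc9. In the RPKM columns of the same table, which are not used for any value here, Ndn, Mcts2, Zrsr1, Mkrn3 and Magel2 were above 0 in every library, so their counts of 0 or 1 are not to be read as their level. Kcnq1ot1 and Peg13 were at 0 there as well. In the whole table, 70% of the 1136 protein-coding rows that lie inside another row had at most 5 counts in every library, against 38.2% of the other 20200 protein-coding rows. How reads in overlapping rows were assigned is not given in the sources used here, and its part in these counts was not tested. The counts of the tested members Nnat, which lies inside Blcap, and Gnas, H13, Commd1 and Trappc9, which overlap other rows, carry the same uncertainty. So do those of the called members Mest, Copg2, H19, Zdbf2 and Rian, which overlap other rows as well. Snrpn, Ube3a, Igf2r, Igf2, Usp29, Meg3, Mirg and Rtl1 are among the further tested members with such overlaps.

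Of 57 other imprinted genes on a wider list, 31 were tested, 2 rose and 3 fell (median -0.05), close to the shares of all genes. The creatine synthesis gene Gatm rose (0.94 ± 0.32, edgeR adjusted p = 0.0298), as did Cd81, a tetraspanin gene in the Kcnq1 span (0.40 ± 0.07, edgeR adjusted p = 2.57e-06). Cobl, an actin nucleator gene that lies near Grb10 in the genome, fell from 44.7 ± 5.16 to 24.7 ± 1.71 CPM (SD, n = 3 each; -0.86 ± 0.12, edgeR adjusted p = 4.77e-08). Ppp1r9a on chromosome 6 (-0.34) and Dhcr7, the last enzyme of cholesterol synthesis (-0.31), fell as well. Called genes within 250000 bases of other clusters were Ctsd (0.24, next to H19), Acat2 (-0.25, next to Igf2r), Sf3b5 (0.24, next to Plagl1) and, next to Rasgrf1, Adamts7 (0.83) and Tmed3 (0.78).

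Of 18 genes that maintain imprints, all tested, 0 rose (edgeR, no member called higher) and 3 fell, beside 8.13% and 9.13% of all genes tested. With 1 library left out, 2 or 3 of them fell, and 1 rose without KO library 04. Zfp57, whose protein binds the hexamer shown above, had 434, 381 and 406 counts in WT against 339, 357 and 300 in KO. All KO libraries of Zfp57 were lower, 67.2 ± 1.05 against 91.0 ± 5.87 CPM (SD, n = 3 each; -0.44 ± 0.08, edgeR adjusted p = 2.79e-05). The histone methyltransferase gene Ehmt2 (-0.34 ± 0.05, edgeR adjusted p = 9.13e-07) and the insulator protein gene Ctcf, which lies on chromosome 8 (-0.22 ± 0.06, edgeR adjusted p = 0.0071), fell too. The second zinc finger gene of this system, Zfp445, was at 69.3 CPM in WT and 69.8 in KO, and the corepressor gene Trim28 and the maintenance methyltransferase gene Dnmt1 were not called (-0.05 and -0.03). Of 8 genes that write or erase DNA methylation, 4 fell: Tet2 (-0.88), Dnmt3l (-0.21), Dnmt3a (-0.17) and Tet1 (-0.16), beside the same 9.13% of all genes. DNA methylation itself was not measured in these libraries.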

How the data were processed

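The samples are 3 WT and 3 Cables2-deficient EpiLC samples; ribosomal RNA was depleted before directional library preparation and paired-end sequencing, as the labels' protocols state. In the table that the authors deposited are whole-number read counts per gene and library, not normalized, per the file headers. A p-value with FDR correction and a signed fold, a score that is negative where KO is lower, come from the authors' own test, per the file headers. According to the submitters' processing notes the build was mm10 and edgeR was used; no aligner, counting program or annotation is named there. Each count column was assigned to its group by the genotype in its name; its library number, 01 to 06, is not a replicate number of the labels. The 18 other columns of values per library were not used. Among them are RPKM columns. Neither they nor the count columns name single samples, and only the counts were kept, as 1 measure for each library. The RPKM columns were examined before they were left out. An earlier fit on reads recovered from them called Ndn higher in KO, whereas its count row is too low to test. That fit was not kept, no value of it is given, and its call of Ndn is not a result here. Apart from which members were above 0 in the RPKM columns, nothing reported in the results rests on those columns. The row Gm26917 held 8.34% to 10.2% of each total of 4234788 to 5206717 counts. The floors take counting error alone into account, as PCR copies were not marked with molecular identifiers.

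Counts were filtered with filterByExpr, normalized by TMM (factors 0.987 to 1.02) and modelled in edgeR 4.0.16 (robust quasi-likelihood, group as the only term, R 4.3.3), with Benjamini-Hochberg adjustment across the tested genes. Standard errors were obtained as the absolute log2 fold change over the square root of F. The common coefficient of variation was 5.03%. Exon lengths come from GENCODE M21 (95.1% of symbols matched), and sequences from RefSeq tables of GRCm38.p6. Alternatives were other scalings, other filters, DESeq2 1.42.0, the fit without Gm26917, leaving out each library, and, added after the data were seen, a fit without chromosomes 6 and 8. The members and lists were chosen with earlier results of these data known. All members are named; values per library are given for called members and for members with a mean of at least 10 CPM or groups that do not overlap, and from other lists up to 5 called genes in each direction. A called neighbour of a cluster is not reported here.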

Additional observations from a re-analysis of the deposited data

How the results depend on the processing

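Among the alternatives run, DESeq2 gave fewer calls over all genes (569 rose and 693 fell, against 943 and 1059) and 3 members that rose, against 5. Upper-quartile factors and library size alone each gave 8 members that rose, adding Snrpn, Mirg and Impact and moving the split of called members from 5 higher and 6 lower to 8 higher and 6 lower. Leaving out 1 library gave 3 to 5 members that rose and 5 or 6 that fell. Without the genes of chromosomes 6 and 8, which removes 4 members by construction, 2 members fell and Rian lost its call (adjusted p = 0.0612). The median log2 fold change of the members was 0.104 with no low-count filter, 0.0992 without chromosomes 6 and 8 and 0.0472 to 0.104 with 1 library left out. Signs that turned belonged to members that were not called. With 1 library left out, Igf2 ran from -0.0544 to 0.327, Cdkn1c from -0.0643 to 0.159, Phlda2 from -0.045 to 0.0207, Ascl2 from -0.00625 to 0.368, Rtl1 from -0.245 to 0.108, Igf2r from -0.00263 to 0.114 and Commd1 from -0.124 to 0.0417. With library size alone, Commd1 was at 0.000711 and Phlda2 at 0.0113; upper-quartile factors put Phlda2 at 0.0093. Of the other imprinted genes, 1 rose with DESeq2 or without WT library 01, WT library 02, KO library 04 or KO library 06, and 5 fell without WT library 02. The causes were not tested. Peg10, H19, Mest, Copg2, Slc38a4, Grb10, Zdbf2 and Cables2 kept direction and call in all 6 fits that left out 1 library. No paired analysis was possible because the columns carry no replicate number of the labels. Members with few counts (Peg12, Plagl1, Nnat, Igf2, Ascl2, Usp29) have standard errors above 0.2 on the log2 scale, which limits what can be detected for them.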
